A study of Mus musculus with 32 samples.

Results

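The V-ATPase and lysosome membrane genes are 43 mouse genes, chosen by name from the 56246 gene rows of the count table. They comprise 8 V1 and 7 V0 subunit genes of the vacuolar proton pump, 2 accessory genes of the pump, 9 genes of lysosomal membrane glycoproteins and related membrane proteins, 5 of channels and their partners, 4 of transporters, 5 of the LAMTOR scaffold and 3 of mannose 6-phosphate sorting. The choice was made by name and not by a cut on measured values, but with earlier results of these data known. Of the 43, 42 passed the filter on low counts and were tested, and Atp6v1c1, a V1 subunit gene, was listed at 0 in all 32 libraries and was not tested. Whether that 0 comes from the counting or annotation or from the cells is not known, and it is not read as absence of the transcript.

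The study examined whether inhibiting the lysosome and autophagy acts on leukemia stem cells of FLT3-ITD acute myeloid leukemia together with inhibition of the FLT3 kinase. Every mouse carried a FLT3-ITD transgene on the C57BL/6 strain, the internal tandem duplication that makes the FLT3 receptor kinase constitutively active, and no library came from mice without it. Bone marrow was sorted into LSK cells (lineage-negative, Sca-1-positive, Kit-positive stem and early progenitor cells) and GMP (granulocyte-macrophage progenitors) after treatment in vivo with the combination of Lys05 and AC220, with AC220 alone, with Lys05 alone or with vehicle. AC220 (quizartinib) is a FLT3 kinase inhibitor, and Lys05 is a dimeric chloroquine derivative that accumulates in lysosomes and blocks their function. Each of the 8 groups had 4 libraries, which the labels call biological replicates. The labels give no animal number, dose, time or age, so p-values measure the spread between these samples.

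The vacuolar proton pump acidifies lysosomes. Its V1 sector in the cytosol hydrolyses ATP and turns a rotor, and its V0 sector in the membrane carries the protons, with the a subunit (Atp6v0a1, Atp6v0a2 or Tcirg1) as the isoform that sets where the pump works. The LAMTOR complex, also called Ragulator, sits on the lysosome surface, touches the pump and anchors the Rag GTPases that recruit the growth regulator mTORC1. Many lysosomal genes hold the palindrome TCACGTGA, the core of the motif bound by TFEB and its relatives, which are transcription factors of lysosome formation.

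Promoter sequences were taken from RefSeq on GRCm38.p6 (250 bases before to 50 bases after the gene start), which matched 34 of the 43 members. TCACGTGA, searched on both strands, was found in 8 of these 34 members (23.5%), against 304 of all 27025 genes with a promoter (1.12%). The 8 were Atp6v1a, Atp6v0d1, Atp6v0e, Igf2r, Mcoln1, Clcn7, Cln3 and Slc36a1. The shorter E-box CACGTG, which every TCACGTGA contains, was found in 12 of 34 members (35.3%), against 8.09% of all genes, the added members being Atp6v0b, Lamp1, Lamtor1 and Lamtor4. The promoters of 4 members with the motif are shown because their transcripts moved in different directions in the results below, and that of Lamtor2 because this member, without either motif, had the greatest fold difference under AC220. Capitals mark CACGTG, with its flanking T and A where the match is TCACGTGA.
Atp6v1a, chr16:44139210-44139509, minus strand: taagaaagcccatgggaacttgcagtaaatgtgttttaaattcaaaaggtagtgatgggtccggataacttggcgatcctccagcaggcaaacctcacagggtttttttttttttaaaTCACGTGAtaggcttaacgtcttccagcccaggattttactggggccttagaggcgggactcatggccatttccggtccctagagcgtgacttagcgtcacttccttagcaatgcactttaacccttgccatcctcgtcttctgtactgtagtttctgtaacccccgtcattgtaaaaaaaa
Mcoln1, chr8:3500269-3500568, plus strand: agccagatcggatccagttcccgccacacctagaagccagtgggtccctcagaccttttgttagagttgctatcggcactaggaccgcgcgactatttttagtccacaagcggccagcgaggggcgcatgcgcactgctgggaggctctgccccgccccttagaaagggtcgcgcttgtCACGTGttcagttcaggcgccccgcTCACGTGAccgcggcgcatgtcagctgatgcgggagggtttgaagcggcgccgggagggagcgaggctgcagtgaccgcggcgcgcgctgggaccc
Clcn7, chr17:25133141-25133440, plus strand: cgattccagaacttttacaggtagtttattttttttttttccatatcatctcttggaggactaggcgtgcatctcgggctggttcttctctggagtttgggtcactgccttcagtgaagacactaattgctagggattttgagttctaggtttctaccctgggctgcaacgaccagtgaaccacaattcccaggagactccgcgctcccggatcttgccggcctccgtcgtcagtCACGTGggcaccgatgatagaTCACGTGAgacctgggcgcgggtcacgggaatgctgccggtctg
Atp6v0e, chr17:26676146-26676445, plus strand: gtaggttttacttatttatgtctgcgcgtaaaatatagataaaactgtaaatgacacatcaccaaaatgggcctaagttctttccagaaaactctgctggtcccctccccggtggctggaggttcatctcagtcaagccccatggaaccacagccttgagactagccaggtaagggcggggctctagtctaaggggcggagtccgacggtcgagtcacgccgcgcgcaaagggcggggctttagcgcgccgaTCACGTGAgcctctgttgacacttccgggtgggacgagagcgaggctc
Lamtor2, chr3:88552902-88553201, minus strand: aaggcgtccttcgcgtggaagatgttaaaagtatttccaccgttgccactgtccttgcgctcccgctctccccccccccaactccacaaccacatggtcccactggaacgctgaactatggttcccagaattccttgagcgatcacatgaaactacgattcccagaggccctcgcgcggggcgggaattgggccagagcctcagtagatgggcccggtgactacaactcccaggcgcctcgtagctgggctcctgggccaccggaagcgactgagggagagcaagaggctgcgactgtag
The first base of TCACGTGA lay 132 bases upstream of the start in Atp6v1a and 46 bases upstream in Mcoln1, and at position +7 in Clcn7 and +3 in Atp6v0e.

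The libraries held 35.7 to 55.9 M gene counts each, and levels are given below as CPM (counts per M, TMM-scaled within the fit a comparison uses). On GRCm38, with GENCODE M21 gene bounds, members the results turn on include Lamtor2 (ENSMUSG00000028062) on chromosome 3 (88549819 to 88553074, minus strand), Atp6v1f (ENSMUSG00000004285) on chromosome 6 (29467718 to 29470512, plus strand), Atp6v0a2 (ENSMUSG00000038023) on chromosome 5 (124628576 to 124724455, plus strand), Atp6ap1 (ENSMUSG00000019087) on chromosome X (74297097 to 74304721, plus strand), Lamp1 (ENSMUSG00000031447) on chromosome 8 (13159161 to 13175338, plus strand) and Clcn7 (ENSMUSG00000036636) on chromosome 17 (25133391 to 25162104, plus strand). The LSK marker list summed to 1430 to 1790 CPM in vehicle LSK cells, against 340 to 561 CPM in vehicle GMP, and the GMP marker list to 3410 to 5720 CPM in LSK cells, against 47600 to 56300 CPM in GMP (exact permutation test over samples, two-sided p = 0.0286 for each, the smallest that 4 against 4 allows). Replicates spread more in GMP (common biological coefficient of variation 1.06) than in LSK cells (0.475). In GMP, 5 libraries had a median correlation with the other GMP libraries under 0.8. Combination 3 was at 0.684, and Combination 4, AC220 1 and 3 and Vehicle 1 at 0.777 to 0.792. The remaining GMP libraries were at 0.822 to 0.882.

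Under AC220, the module split in LSK cells: 17 of the 42 members were higher and 16 lower than under vehicle, and 9 were not called (edgeR quasi-likelihood test, Benjamini-Hochberg adjusted p under 0.05 over all 15730 genes). The pump subunit genes Atp6v1d, Atp6v1e1, Atp6v1f, Atp6v1g1, Atp6v0b and Atp6v0e and all 5 LAMTOR genes were lower, up to 13.1-fold for Lamtor2, while the a subunits Atp6v0a2 and Tcirg1, both pump accessory genes and Lamp1 were higher. Of all genes tested, 29.4% were called higher and 25.5% lower, so calls were common in this comparison. The median log2 fold change was 0.45 over the members and 0.09 over all genes.

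The share of counts from genes with short transcripts moved with AC220. Genes with a median transcript under 1000 bp took 23.0% ± 1.96 of the counts under AC220 or the combination in LSK cells (20.9 to 27.3%), against 44.7% ± 2.08 under Lys05 or vehicle (41.4 to 47.1%; SD, n = 8 each; exact permutation p = 0.000155, which is as small as 8 against 8 samples can give). The members' calls differed by length: of the 10 tested members under 1000 bp, 8 were lower and 0 higher under AC220 than under vehicle, while of the 11 members of 2000 to under 3000 bp all 11 were higher. The median log2 fold change under 1000 bp was -2.12 over the members and -1.51 over all genes, and over all genes it was -0.67 from 1000 to under 1500 bp and 0.77 from 2000 to under 3000 bp. Across the 42 members, Spearman's rho between length and log2 fold change was 0.61, and across all genes 0.41, as a description, since genes share libraries. With an offset per library for transcript length and GC content, 8 members were higher and 15 lower under AC220, beside 16.3% and 27.1% of all genes. Of the 33 calls, 19 held with the same direction (6 higher and 13 lower). What part transcript length or RNA quality had in these changes was not tested. In bulk RNA from sorted cells, fewer cells of a type and less RNA per cell cannot be told apart.

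**Figure D1:**
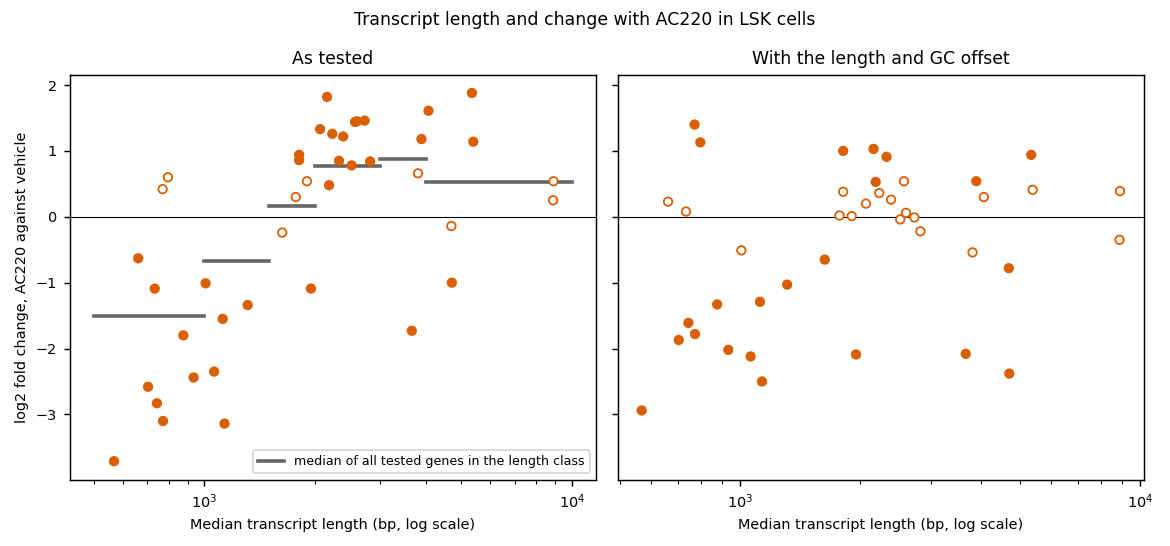
Log2 fold change (AC220 against vehicle in LSK cells) of the 42 tested members by median transcript length in bp, as tested with the all-gene median of each length class, and with a length and GC offset. Members under 1000 bp lie mostly below 0 and those of 2000 to under 3000 bp above it, on the same side of 0 as the all-gene medians of -1.51 and 0.77 and on the whole farther from 0, and 19 of 33 calls hold in the same direction with the offset.

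In the V1 sector, 3 of 7 tested subunits were higher under AC220 and 4 lower. Atp6v1a, the catalytic subunit, was at 55.6, 66.9, 59.6 and 68.1 CPM in AC220 LSK cells, against 35.6, 26.1, 18.9 and 29.8 CPM under vehicle. The groups did not overlap, and the log2 fold change was 1.18 ± 0.19 (SE; edgeR adjusted p = 6.13e-05), or 0.54 with the offset. Atp6v1b2, the nucleotide-binding B subunit, rose by 0.84 ± 0.18, but the offset ended this call with a value of the other sign (-0.22). Atp6v1h, a regulatory subunit, rose by 0.86 ± 0.23. Atp6v1f, a small subunit of the central stalk, was at 160, 194, 223 and 198 CPM under AC220, against 891, 1210, 1340 and 1210 CPM under vehicle (-2.58 ± 0.14, edgeR adjusted p = 2.16e-10). Every AC220 library was therefore below every vehicle library, and the offset value was -1.87. Atp6v1g1, of the peripheral stalk, averaged 96.0 CPM under AC220 and 843 CPM under vehicle, 8.79-fold lower (edgeR adjusted p = 6.25e-11). The stalk subunits Atp6v1d and Atp6v1e1 were lower by log2 values of -1.73 ± 0.13 and -1.34 ± 0.15.

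In the V0 sector, 2 of 7 members were higher, 2 lower and 3 not called. Atp6v0a2, the a2 isoform, was at 86.2, 64.3, 62.6 and 84.4 CPM under AC220, against 27.9, 23.2, 16.1 and 13.9 CPM under vehicle. That is 3.67-fold higher with no overlap (log2 1.88 ± 0.22, edgeR adjusted p = 2.01e-06, and 0.94 with the offset). Tcirg1, the a3 isoform known from osteoclasts, was at 46.7 to 62.2 CPM under AC220, against 4.01, 20.2, 32.4 and 24.0 CPM under vehicle (1.46 ± 0.43, edgeR adjusted p = 0.00877), a call that the offset ended. Atp6v0a1, the a1 isoform, had 0.66 ± 0.32 and was not called (edgeR adjusted p = 0.0977). Per kb of transcript, mean levels under AC220 were 20.4 CPM for Tcirg1, 13.9 for Atp6v0a2 and 3.50 for Atp6v0a1, and under vehicle 7.39, 3.79 and 2.22, as means of 4 libraries. The isoforms overlapped between vehicle libraries: Tcirg1 ran from 4.01 to 32.4 CPM there and Atp6v0a2 from 13.9 to 27.9 CPM, before division by length.

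Atp6v0e, a small membrane subunit, was at 178, 177, 205 and 208 CPM under AC220, against 1200, 1790, 1940 and 1690 CPM under vehicle. It was 8.60-fold lower without overlap (log2 -3.10 ± 0.16, edgeR adjusted p = 8.01e-11, and -1.78 with the offset). Atp6v0b, a proteolipid of the rotor ring, averaged 64.8 CPM under AC220 and 352 CPM under vehicle. The main ring proteolipid Atp6v0c (0.60 ± 0.26, edgeR adjusted p = 0.0569) and the stalk-binding Atp6v0d1 (-0.24 ± 0.16) were not called. Atp6v0c, Cd63 and M6pr have near-identical copies in the genome, and their counts are uncertain.

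Both accessory genes rose. Atp6ap1, which helps assemble and sort the pump, was at 146, 221, 220 and 215 CPM under AC220, against 57.5, 64.9, 54.5 and 50.5 CPM under vehicle. Its log2 fold change was 1.82 ± 0.20 (edgeR adjusted p = 9.45e-07), and 1.03 with the offset. Atp6ap2, the prorenin receptor, rose by 0.85 ± 0.17, and by 0.91 with the offset.

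Among the glycoproteins, Lamp1, an abundant coat protein of the lysosome membrane, was at 144, 159, 163 and 159 CPM under AC220, against 73.7, 79.7, 61.1 and 47.3 CPM under vehicle. The groups were apart (2.39-fold higher, 95% interval of the log2 value 0.91 to 1.61, edgeR adjusted p = 1.73e-05), and the offset ended the call. Lamp2, its paralog and the receptor of chaperone-mediated autophagy in one splice form, rose by 0.48 ± 0.15. Laptm5, a lysosomal protein of blood cells, averaged 1420 CPM under AC220 and 522 CPM under vehicle (1.45 ± 0.18), also without a call under the offset. Cd63, a tetraspanin of late endosomes, was at 120, 195, 151 and 133 CPM under AC220, against 807, 604, 842 and 797 CPM under vehicle. It was 5.09-fold lower (-2.35 ± 0.24, edgeR adjusted p = 3.93e-07, and -2.12 with the offset). Tmem192 fell by 1.55 on the log2 scale. Cd68, a macrophage sialomucin, had overlapping groups (-1.01 ± 0.41, edgeR adjusted p = 0.0493), and its adjusted p reached 0.258 when single libraries were left out. Scarb2, Laptm4a and Laptm4b were not called.

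**Figure D2:**
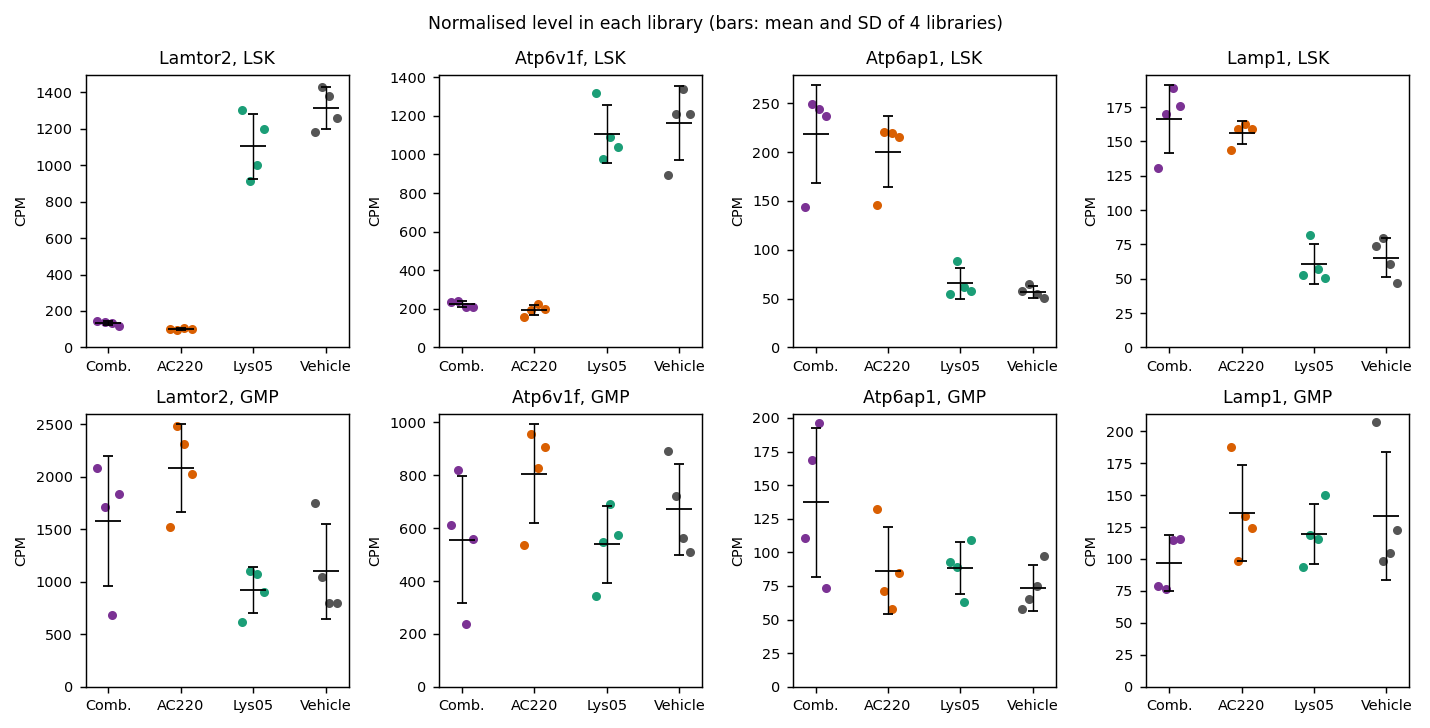
CPM of Lamtor2, Atp6v1f, Atp6ap1 and Lamp1 in LSK cells and GMP, each on the scale of its own fit, with points for libraries and mean and SD for the groups combination, AC220, Lys05 and vehicle. In LSK cells, Lamtor2 lies at 95.8 to 146 CPM in libraries with AC220 and at 914 to 1430 CPM in those without, and Atp6ap1 at 144 to 249 CPM against 50.5 to 88.8 CPM.

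Of the channels, 3 of 5 were higher under AC220 and 1 lower. Clcn7, the chloride-proton exchanger that pairs with Ostm1, was at 25.6, 29.9, 22.4 and 30.0 CPM under AC220, against 4.17, 11, 9.58 and 10.8 CPM under vehicle. Its groups did not overlap (1.61 ± 0.29, edgeR adjusted p = 0.000211), and the call was lost with the offset. Mcoln1, the calcium-releasing TRPML1 channel, was at 1.33 ± 0.50, and Tmem175, a potassium and proton channel, at 0.94 ± 0.33. The offset ended both calls, and leaving out single libraries ended that of Mcoln1 in 6 of 16 fits (AC220 libraries 2, 3 and 4 and vehicle libraries 2, 3 and 4) and that of Tmem175 in 2 (AC220 library 2 and vehicle library 2). Of the exons of Tmem175, 35.3% overlap Dgkq on the other strand, and the strand setting of the counting is not given in the sources used here. Tpcn1, a two-pore channel, fell by 1.0 on the log2 scale, and Ostm1 was not called. Among the transporters, Cln3, the protein of juvenile Batten disease, and Ctns, the cystine exporter, were higher (1.22 ± 0.46 and 1.44 ± 0.47), and neither call held with the offset. That of Cln3 was also lost with RLE size factors, with the compared groups alone and in 5 of 16 leave-one-out fits (AC220 libraries 1, 2 and 4 and vehicle libraries 2 and 4). Slc36a1, an amino acid exporter, averaged 3.21 CPM under AC220 and 6.84 CPM under vehicle (-1.09 ± 0.29). Slc38a9, an arginine sensor of the lysosome in human cells, was not called.

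All 5 LAMTOR genes were lower under AC220. Their median transcripts are short (568 to 877 bp), and over all genes under 1000 bp the median log2 fold change was -1.51. Lamtor2 was at 101, 95.8, 105 and 99.2 CPM in AC220 LSK cells, against 1180, 1430, 1380 and 1260 CPM under vehicle. This 13.1-fold difference was the greatest among the members (log2 -3.71 ± 0.13, edgeR adjusted p = 5.03e-12), with -2.94 under the offset. Lamtor5 averaged 51.7 CPM under AC220 and 367 CPM under vehicle (-2.83 ± 0.14), and Lamtor4 53.0 and 184 CPM (-1.80 ± 0.14). Lamtor1, which tethers the complex to the membrane (-0.63 ± 0.20), and Lamtor3 (-1.09 ± 0.19) lost their calls and changed sign with the offset. The call of Lamtor1 was also lost in 2 of 16 leave-one-out fits (vehicle libraries 3 and 4, edgeR adjusted p up to 0.0768). Lamtor1 shares 18.7% of its exons with Lrrc51 on the other strand. In mannose 6-phosphate sorting, M6pr, the small receptor, rose by 0.78 ± 0.13 and Gnptab, which makes the tag, by 1.14 ± 0.21, neither called with the offset, and Igf2r, the large receptor, was not called.

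**Figure D3:**
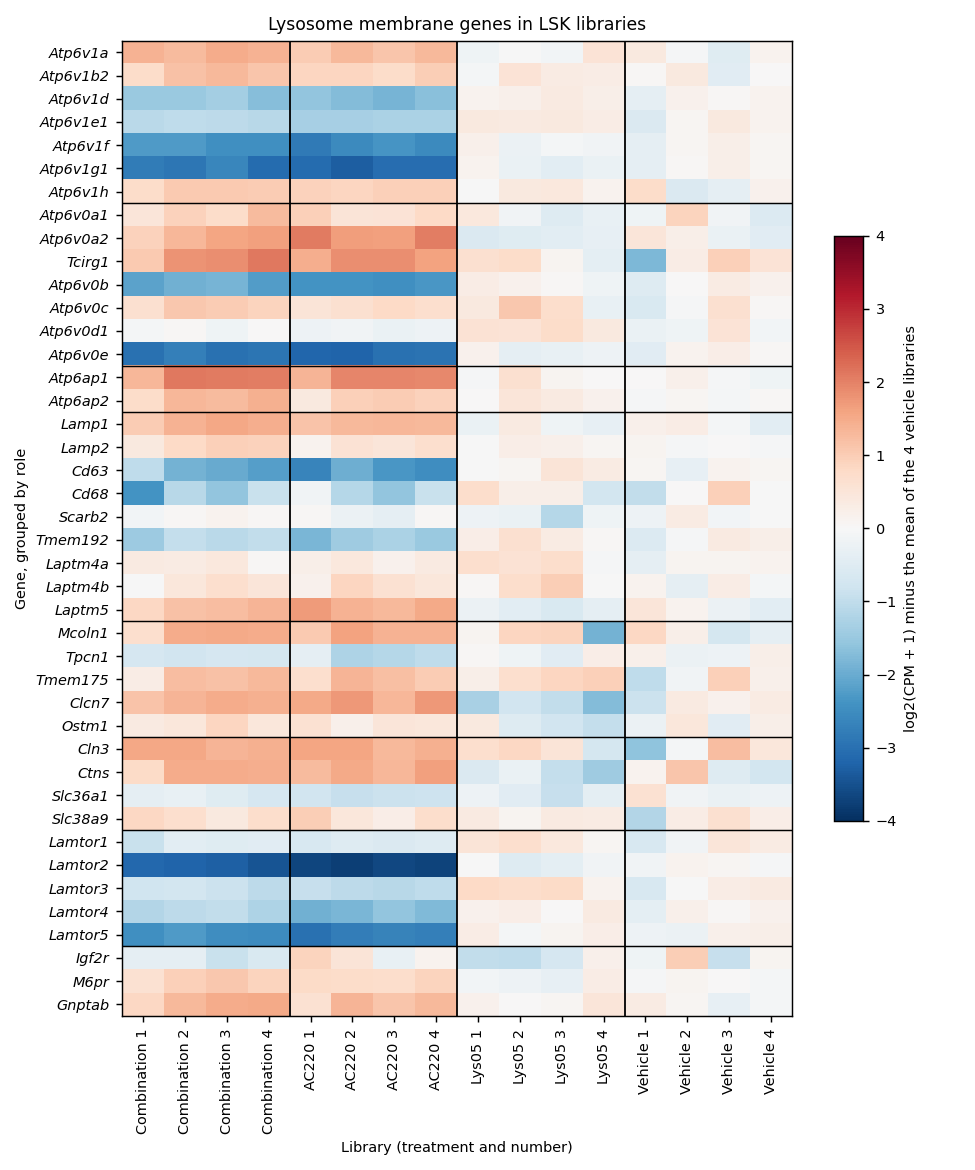
Log2(CPM + 1) minus the mean of the 4 vehicle libraries for the 42 tested members (rows, by role) in the 16 LSK libraries (columns: combination, AC220, Lys05, vehicle). The 5 LAMTOR genes, Atp6v1f, Atp6v1g1, Atp6v0b and Atp6v0e average below vehicle under AC220 and the combination, and Atp6ap1, Atp6v0a2 and Lamp1 above it.

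Under the combination, 19 members were higher and 15 lower in LSK cells than under vehicle, against 28.3% and 23.6% of all genes, with a median log2 fold change of 0.46 over the members and 0.06 over all genes. This comparison shares its vehicle libraries with that of AC220. All 5 LAMTOR genes were again lower: Lamtor2 was at 146, 142, 134 and 119 CPM under the combination, against 1180 to 1430 CPM under vehicle (-3.28 ± 0.12). Over all genes under 1000 bp, the median log2 fold change was -1.28. The call of Lamtor1 was lost in 3 of 16 leave-one-out fits (combination library 1 and vehicle libraries 3 and 4, edgeR adjusted p up to 0.0626). Of the V1 sector, 3 members were higher and 4 lower, of the V0 sector 4 higher and 2 lower, and both accessory genes were higher. Atp6ap1 was at 144, 249, 244 and 237 CPM under the combination, against 50.5 to 64.9 CPM under vehicle (1.94 ± 0.20). Atp6v0a1 (0.85 ± 0.32, edgeR adjusted p = 0.0387) and Atp6v0c (0.86 ± 0.26, edgeR adjusted p = 0.0101) were called here, and Slc36a1 (-0.59 ± 0.28) was not. The call of Atp6v0a1 was lost with RLE size factors, with the offset, where its sign turned (-0.19), and in 6 of 16 leave-one-out fits (combination libraries 2, 3 and 4 and vehicle libraries 1, 3 and 4). Cd63 averaged 230 CPM under the combination and 762 CPM under vehicle (-1.73 ± 0.23), and Cd68 had -1.56 ± 0.42. With the offset, 10 members were higher and 17 lower, beside 16.2% and 26.0% of all genes, and 22 of the 34 calls held with the same direction.

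**Figure D4:**
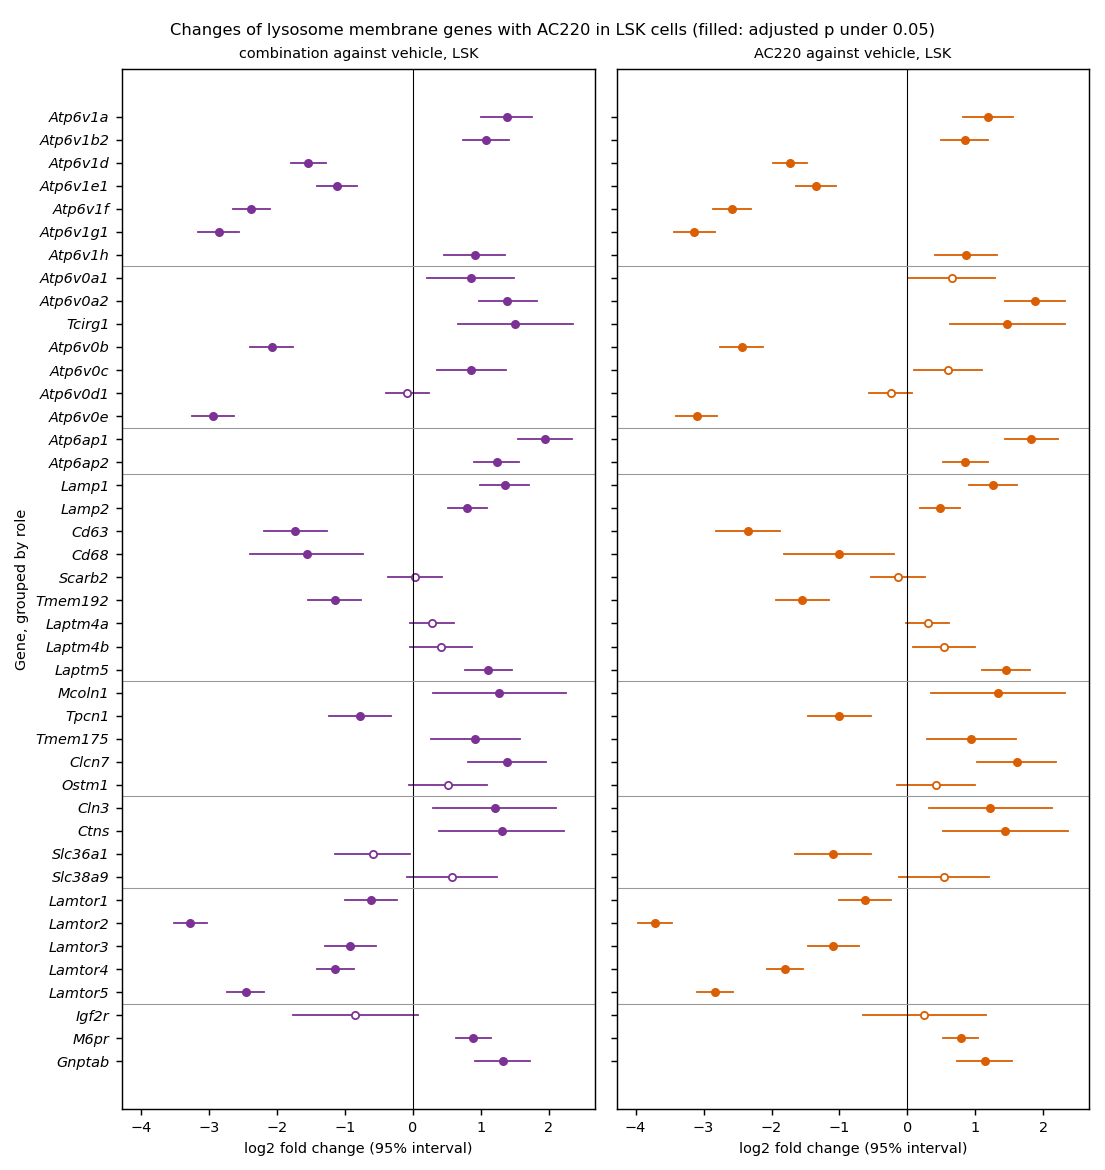
Log2 fold change with its 95% interval for the 42 tested members in LSK cells, combination against vehicle (left) and AC220 against vehicle (right), with filled points for calls. Lamtor2 is lowest in both (-3.28 and -3.71) and 34 and 33 members are called; the panels share the vehicle libraries.

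Between the combination and AC220 alone, edgeR called 1 of the 42 members in LSK cells, DESeq2 2 and limma voom 11 (9 higher and 2 lower). Lamtor4 was at 80.6, 86.8, 91.0 and 76.4 CPM under the combination, against 47.6, 50.9, 60.2 and 53.3 CPM under AC220 (log2 0.66 ± 0.13, edgeR adjusted p = 0.0475), and the groups did not overlap. Of all genes, edgeR called 0.343% higher and 0.0127% lower, DESeq2 1.93% and 0.286%, and limma voom 8.57% and 4.86%. The edgeR call of Lamtor4 was lost in 15 of the 16 fits that left out 1 library (adjusted p up to 0.22) and with the length and GC offset. Lamtor2 (0.43 ± 0.11, edgeR adjusted p = 0.111) and Lamtor5 (0.37 ± 0.13, 0.295) were not called. At an unadjusted p under 0.05, 9 members differed, beside 1456 of the 15730 genes.

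Lys05 alone changed none of the 42 members in LSK cells by edgeR, and 0% of all genes were called in either direction. At an unadjusted p under 0.05 were 10 members and 2718 of the 15730 genes. The smallest p was that of Clcn7, at 2.85, 4.51, 3.74 and 1.83 CPM under Lys05, against 4.17, 11, 9.58 and 10.8 CPM under vehicle. These groups overlapped (-1.45 ± 0.30, edgeR adjusted p = 0.0756), and DESeq2 called Clcn7 alone among the members (adjusted p = 0.000651), while limma voom called none. Of all genes, DESeq2 called 2.11% higher and 1.75% lower. Atp6v0d1 averaged 86.6 CPM under Lys05 and 59.7 CPM under vehicle (0.54 ± 0.16, edgeR adjusted p = 0.141), and Laptm4a had 0.50 ± 0.16 (0.161). Lamtor2 was at 1300, 914, 1000 and 1200 CPM under Lys05, against 1180 to 1430 CPM under vehicle. Over the libraries with Lys05 against those without, edgeR called 0 members and 0% of all genes. The smallest p were those of Lamtor4 (0.43 ± 0.10, edgeR adjusted p = 0.102), Clcn7 (-0.84) and Atp6v0a2 (-0.51). At an unadjusted p under 0.05 were 15 members and 2837 of the 15730 genes. DESeq2 called 3 members, beside 1.64% of all genes higher and 1.47% lower, and limma voom 5, beside 3.13% and 0.877%. The interaction of both drugs was called in 0 members and 0% of all genes by edgeR, with 6 members and 1645 of the 15730 genes at an unadjusted p under 0.05. DESeq2 called 1 member, beside 0.718% of all genes higher and 0.0318% lower, and limma voom 0. The smallest p of the interaction were those of Lamtor2 (0.68 ± 0.16, edgeR adjusted p = 0.222, DESeq2 adjusted p = 0.0232), Clcn7 (1.23) and Slc36a1 (1.11).

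Against Lys05 alone, the combination raised 16 members and lowered 16 in LSK cells, against 27.2% and 22.3% of all genes. The greatest rise was that of Clcn7, at 19.9, 23.3, 25.5 and 24.0 CPM under the combination, against 1.83 to 4.51 CPM under Lys05. It was 7.16-fold higher without overlap (2.84 ± 0.31, edgeR adjusted p = 9.85e-07). Ctns rose by 2.59 ± 0.49, Atp6v0a2 by 1.92 ± 0.22 and Ostm1, the partner of Clcn7, by 0.97 ± 0.30. Lamtor2 fell by 3.03 on the log2 scale. Atp6v0d1, not called against vehicle, fell by 0.61 (edgeR adjusted p = 0.00423). With the offset, 11 members were higher and 16 lower, beside 14.6% and 23.2% of all genes, and 25 of the 32 calls held with the same direction.

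Markers of other cell types also moved with AC220 in LSK cells. The B cell list (8 genes) summed to 38.9 to 75.2 CPM in the 8 libraries with AC220 and to 121 to 204 CPM in the 8 without, and the T and NK cell list (8 genes) to 372 to 761 and 1640 to 2790 CPM (exact permutation p = 0.000155 for each). Cd79a, Ms4a1, Pax5 and Ebf1, and Cd3e, Trbc2 and Gzma, averaged under 1 CPM in LSK cells. The neutrophil list summed to 1240 to 3740 CPM with AC220 and 3510 to 9530 CPM without (p = 0.000311), the basophil and mast cell list to 77.5 to 182 and 161 to 318 CPM (p = 0.000311), and the dendritic cell list to 786 to 19300 and 10400 to 68900 CPM (p = 0.00124), all by exact permutation. The marrow macrophage list was higher, at 34.8 to 77.1 CPM with AC220 and 9.98 to 40.1 CPM without (exact permutation p = 0.000932). The LSK list (p = 0.905), GMP list (p = 0.785), monocyte list (p = 0.867) and erythroid and megakaryocyte list (p = 0.134) had larger exact permutation p. In GMP, under the combination against vehicle, the macrophage list summed to 97.6 to 1550 CPM against 12.5 to 39.5 CPM, the dendritic cell list to 198 to 1380 CPM against 2990 to 11500 CPM and the GMP list to 27300 to 35100 CPM against 36900 to 52700 CPM (exact permutation p = 0.0286 for each). Between vehicle LSK cells and vehicle GMP, the monocyte list summed to 509 to 1060 CPM in LSK cells against 2840 to 4700 CPM in GMP, the dendritic cell list to 15600 to 57400 against 3860 to 14000 CPM, and the T and NK cell list to 1360 to 2040 against 2370 to 3660 CPM (exact permutation p = 0.0286 for each). The part of these cells in the members' values was not tested.

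In GMP, edgeR called none of the 42 members in any of the 8 comparisons of treatments, and none without the 5 libraries of low correlation. Under AC220, edgeR called 0% of all genes. DESeq2 called 0 members, beside 0.192% of all genes higher and 1.74% lower, and limma voom 1, beside 0.556% and 0.913%. At an unadjusted p under 0.05 were 1386 of the 14572 genes and 1 member. This was Lamtor2, at 1520, 2480, 2310 and 2030 CPM under AC220, against 1750, 1050, 797 and 800 CPM under vehicle. The groups overlapped, and the value was above vehicle where the LSK value was below it (0.92 ± 0.34, edgeR adjusted p = 0.366). Scarb2 (1.08) and Atp6v1b2 (0.62) followed. Over all 8 GMP libraries with AC220 against the 8 without, Lamtor2 averaged 1830 and 1010 CPM (0.85 ± 0.24, edgeR adjusted p = 0.101). Laptm5 (0.71) and Atp6v1a (1.10) were next. EdgeR called 0 members and 0.0274% of all genes in each direction, with 5 members and 2152 of the 14572 genes at an unadjusted p under 0.05. DESeq2 called 2 members, beside 1.97% of all genes higher and 2.72% lower, and limma voom 3, beside 3.57% and 4.3%.

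Under the combination in GMP, edgeR called 0% of genes, with 6 members and 1601 of the 14572 genes at an unadjusted p under 0.05. DESeq2 called 1 member, beside 1.04% of all genes higher and 1.39% lower, and limma voom 0, beside 0.0137% and 0%. Atp6v1a was at 51.2, 65.7, 241 and 152 CPM under the combination, against 41.1, 14, 29.5 and 49.8 CPM under vehicle (1.92 ± 0.52, edgeR adjusted p = 0.316; DESeq2 adjusted p = 0.0176). The groups did not overlap, and the highest values, 241 and 152 CPM, came from libraries with a low correlation. Atp6v0a1 (1.62) and Laptm5 (0.83) followed. Under Lys05 in GMP, edgeR called 0 members and 0% of genes, with 0 members and 159 of the 14572 genes at an unadjusted p under 0.05. DESeq2 called 0 members, beside 0.00686% of all genes in each direction, and limma voom 2, beside 1.35% higher and 3.68% lower. The smallest edgeR p were those of Atp6v1g1 (-0.48 ± 0.26), Atp6ap2 (1.01 ± 0.55) and Atp6v1b2 (0.53).

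Of the other GMP comparisons, the combination against AC220 called 0 members by edgeR, DESeq2 and limma voom. EdgeR called 0.00686% of genes lower and 0% higher, DESeq2 1.86% lower and 3.75% higher, and limma voom 0% in each direction. At an unadjusted p under 0.05 were 2 members, led by Atp6v1a (1.31), and 2035 of the 14572 genes. The combination against Lys05 called 0 members and 0% of genes by edgeR, with 4 members and 1786 of the 14572 genes at an unadjusted p under 0.05. DESeq2 and limma voom each called Laptm5 (1.10). Of all genes, DESeq2 called 1.67% higher and 1.44% lower, and limma voom 3.03% and 0.357%. The pooled Lys05 effect and the interaction called 0 members by edgeR, DESeq2 and limma voom, and 0% of genes by edgeR. DESeq2 called 0.624% of all genes higher and 0.542% lower for the pooled effect, and 1.14% and 0.508% for the interaction. By limma voom it was 0% for the pooled effect, and 0.00686% higher and 0% lower for the interaction. At an unadjusted p under 0.05, the pooled effect had 3 members, led by Atp6v1g1 (-0.52), and 1111 of the 14572 genes. The interaction had 0 members and 1287 genes at that limit, and its smallest member p was that of Laptm5 (0.78).

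In GMP, the share of counts from transcripts under 1000 bp was 43.9% ± 5.52 in libraries with AC220 and 44.6% ± 1.85 in those without (SD, n = 8 each, exact permutation p = 0.797). No pooled shift was detected, but AC220 alone and the combination lay on opposite sides of vehicle. They differed from it by 2.12 points (exact permutation p = 0.286) and -4.27 points (p = 0.171). At a limit of 1500 bp, the differences were -0.02 and -6.06 points, the latter with an exact permutation p of 0.0286.

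Under vehicle, the members differed between the cell types in 5 cases, each lower in LSK cells than in GMP by edgeR, against 1.77% of all genes higher and 3.07% lower (edgeR over all 32 libraries, 17144 genes). This fit shares its estimate of a gene's spread between the cell types (common biological coefficient of variation 0.885), although GMP replicates spread more than LSK replicates. The median log2 fold change was -0.50 over the members and 0.00 over all genes. Lamtor4 was at 113, 175, 155 and 169 CPM in LSK cells, against 740, 506, 561 and 471 CPM in GMP (-1.89 ± 0.30, edgeR adjusted p = 0.000188). Lamp1 was at 61.0, 66.2, 50.9 and 39.4 CPM in LSK cells, against 221, 120, 135 and 159 CPM in GMP (-1.54 ± 0.25, edgeR adjusted p = 0.000299). In both genes every LSK library was below every GMP library. Atp6v1b2 (-1.31 ± 0.27), Laptm5 (-0.90 ± 0.22) and Slc36a1 (-2.27 ± 0.60) were also lower. The call of Laptm5 was lost without LSK vehicle library 3 or 4 or GMP vehicle library 1, and that of Slc36a1 without any of these or LSK vehicle library 2. DESeq2 called 2 members higher and 7 lower, beside 5.35% and 5.89% of all genes. By limma voom, 7 were higher and 14 lower, beside 11.7% and 13.6% of all genes. Laptm4b, a lysosomal protein first known from liver cancer, averaged 30.8 CPM in LSK cells and 3.0 CPM in GMP without a call (3.36 ± 1.13, edgeR adjusted p = 0.0805). Leaving out the 5 GMP libraries with a low correlation, a choice made after seeing the data, gave 5 members higher and 12 lower, beside 6.71% and 7.58% of all genes. Per kb of transcript, vehicle LSK cells held most of Lamtor2 (1920 CPM per kb), Atp6v0e (1780) and Atp6v1f (1370), and least of Slc38a9 (0.648) and Igf2r (0.581).

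The AC220 effect itself differed between the cell types in 13 members, 3 with a higher and 10 with a lower value in LSK cells than in GMP, against 8.33% and 8.49% of all genes. For Lamtor2 the LSK effect minus the GMP effect was -4.48 ± 0.35 on the log2 scale (edgeR adjusted p = 1.46e-10). Lower differences were also found for Atp6v0e (-3.22), Atp6v1g1 (-3.02), Cd63 (-2.80), Lamtor5 (-2.75) and Atp6v1f (-2.69), and higher ones for Atp6ap1 (1.79), Lamp1 (1.38) and Laptm5 (1.29). With the offset, the 10 lower calls held and none of the 3 higher ones did (0 higher and 14 lower in all, beside 3.55% and 11.3% of all genes). The split was 11 higher and 12 lower by limma voom, beside 20.3% and 12.2% of all genes. Without the 5 GMP libraries it was 9 higher and 10 lower, beside 16.9% and 11.8%. For the combination, the difference was called higher in 1 member, Lamp1 (1.89 ± 0.35), and lower in 9, led by Lamtor2 (-3.69 ± 0.34) and Atp6v0e (-2.71), against 5.13% and 7.59% of all genes. With the offset, 8 of the 9 lower calls held and that of Lamp1 did not. Without the 5 GMP libraries, 8 members were higher and 12 lower, beside 17.3% and 11.9% of all genes.

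Among the 8 members with TCACGTGA in the promoter, 4 were higher under AC220 than under vehicle in LSK cells (Atp6v1a, Mcoln1, Clcn7 and Cln3), 2 were lower (Atp6v0e and Slc36a1) and 2 were not called, with a median log2 fold change of 0.72, beside 29.4% of all genes higher and 25.5% lower. The calls of Mcoln1, Clcn7 and Cln3 were lost with the offset. Among the 26 matched members without it, 9 were higher and 11 lower, with a median of 0.36. Under Lys05 none of either set was called by edgeR, and their medians were -0.06 and 0.16.

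Genes of the same pathway outside the module were read from lists. Of 38 tested further lysosome membrane genes, 19 were higher and 3 lower under AC220 than under vehicle in LSK cells, with a median log2 fold change of 0.81, beside 29.4% of all genes higher, 25.5% lower and a median of 0.09. The all-gene median depended on length, from -1.51 under 1000 bp to 0.77 from 2000 to under 3000 bp and 0.88 from 3000 to under 4000 bp. Neither transcript length nor the offset was looked at for these lists. The histidine transporter Slc15a4 (2.73), the lysosome-moving GTPase Arl8a (2.28) and the Rag GTPase Rraga (1.52), which binds the LAMTOR complex, were higher, and the fusion protein Vamp8 (-2.97) and the tetraspanin Cd9 (-0.90) lower. Under the combination, 18 were higher and 3 lower, beside 28.3% and 23.6% of all genes. Of 11 tested further pump subunits and assembly factors, 2 were higher (Wdr7, 0.95, and Tldc1, 1.68) and 3 lower (Vma21, -0.65, Tmem199, -1.47, and Oxr1, -0.49) under AC220, beside the same shares of all genes as above (29.4% and 25.5%). Under Lys05 alone, edgeR called none of either list.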

How the data were processed

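RNA from sorted bone marrow LSK cells and GMP of FLT3-ITD mice was turned into cDNA with a SMARTer low-input kit and into Nextera XT libraries, which were read in pairs on a NovaSeq, per the labels' protocols. The authors deposited raw counts per Ensembl gene for 32 libraries as a single table. GRCm38, STAR 2.7.3a and HTSeq 0.11.2, besides Trim Galore 0.6.5 and bcl2fastq 2.20, are named with no role or order, per the submitters' processing notes. The strand setting and annotation release are not given in the sources used here, so counts of genes with an antisense neighbour or a near-identical copy may mix.

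The table has 56246 gene rows, of which GENCODE M21 named 55230, and 5 summary lines that hold 15.2 to 30.9% of a library's counts and were left out throughout. Models were fitted with edgeR 4.0.16 under R 4.3.3, after filterByExpr and TMM scaling, as robust quasi-likelihood tests, once for 16 LSK libraries (15730 genes), once for 16 GMP libraries (14572) and once for all 32 (17144, for comparisons of cell types), with Benjamini-Hochberg adjustment over all genes and calls at an adjusted p under 0.05. A gene's CPM differs between the fits. The SE of a fold change is its size divided by the square root of F, and intervals are 95% normal ones. Transcript length is the lower median over GENCODE basic transcripts. The offset fits each library's log counts on length and GC content with splines of 5 degrees of freedom. For single values, two-sided exact permutation tests ran over samples (SciPy 1.17.1). The edgeR and offset steps were tested on simulated data. Alternatives were DESeq2 1.42.0, limma 3.58.1 voom with quality weights, RLE size factors, no filter on low counts, the offset, fits of the compared groups alone, and leaving out each library. Members, gene lists and tests were chosen with earlier results of these data known. Named members are a fixed set of 28, up to 6 called members in each direction by fold change in each comparison, and the 3 smallest p where none was called. Others were added to complete each role after their values were seen.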

Additional observations from a re-analysis of the deposited data

Results flagged for a closer look

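Among the 28 members followed in both cell types, 15 of 224 groups of 4 libraries held a library far from the other 3, by a gap to the nearest library past Dixon's 95% critical share of the group's range, and chance alone gives about 11.2. In LSK cells these were combination library 1 (Atp6v1h 38.8 CPM, Atp6ap1 144 CPM and Mcoln1 16.4 CPM, each below the others), AC220 library 1 (Atp6ap1 146 CPM, below), Lys05 library 4 (Lamtor3 74.0 CPM, below), vehicle library 3 (Atp6v0d1 86.1 CPM, above) and vehicle library 1 (Laptm4a 61.1 CPM, below). Combination library 1 and AC220 library 1 were both low in Atp6ap1, and without them the groups run from 237 to 249 CPM and from 215 to 221 CPM.

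In GMP they were combination library 3 (Lamp2 347 CPM and Laptm4b 27.5 CPM), AC220 library 1 (Mcoln1 17.4 CPM), Lys05 library 1 (Tcirg1 33.3 CPM, Lamp2 80.8 CPM and Igf2r 4.14 CPM) and vehicle library 1 (Atp6v1h 73.5 CPM and Laptm5 931 CPM). Combination library 3, AC220 library 1 and vehicle library 1 are among the 5 GMP libraries with a low correlation with the others.

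The AC220 effect differed between LSK cells and GMP in a test of the difference itself (edgeR interaction over all 32 libraries). That fit shares its estimate of a gene's spread between the cell types, although GMP replicates spread more. On the log2 scale, the LSK effect minus the GMP effect was -4.48 for Lamtor2, -3.22 for Atp6v0e, -3.02 for Atp6v1g1, -2.80 for Cd63, -2.75 for Lamtor5, -2.69 for Atp6v1f, -1.74 for Atp6v0b, -1.68 for Atp6v1d, -1.47 for Lamtor4 and -1.23 for Atp6v1e1. It was 1.79 for Atp6ap1, 1.38 for Lamp1 and 1.29 for Laptm5. For the combination it was -3.69 for Lamtor2, -2.71 for Atp6v0e, -2.39 for Cd63, -2.33 for Lamtor5, -2.27 for Atp6v1g1, -2.0 for Atp6v1f, -1.51 for Atp6v1e1, -1.45 for Atp6v1d, -1.34 for Atp6v0b and 1.89 for Lamp1. The combination call of Atp6v0b was lost in 25 of the 32 fits that left out 1 library (edgeR adjusted p up to 0.117). The share of counts from transcripts under 1000 bp also moved with AC220 in LSK cells, by -21.75 percentage points, and its part in these differences was not tested.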

How the results depend on the processing

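No paired analysis was possible because the labels give no replicate numbers that link libraries of different groups. The counts of members called in LSK cells were 33 (AC220 against vehicle), 34 (combination against vehicle) and 32 (combination against Lys05), and they stayed within 1.5 times under DESeq2, limma voom, RLE size factors, no filter, the length and GC offset and fits of the compared groups alone. With only genes of 1500 to 4000 bp, chosen after seeing the data, 20 members were tested and 7, 10 and 11 called. In these fits, 23.9% of all genes were higher and 22.9% lower for AC220, 23.4% and 21.5% for the combination, and 21.7% and 20.4% for the combination against Lys05. RLE size factors moved the median of all genes from 0.09 to -0.00 for AC220 against vehicle, and the offset to -0.22. With the offset, values changed sign for AC220 against vehicle in Atp6v1b2 (-0.22), Tcirg1 (-0.01), Lamtor1 (0.23), Lamtor3 (0.08) and M6pr (-0.04), for the combination against vehicle in Atp6v0a1 (-0.19), Laptm5 (-0.16), Lamtor1 (0.11) and Lamtor3 (0.05), for the combination against Lys05 in Atp6v1b2 (-0.21) and Atp6v0a1 (-0.07), and for the difference of AC220 effects in Laptm5 (-0.40). Lamp2 under AC220 was at -0.11 among genes of 1500 to 4000 bp. The cause was not tested.

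Combination against AC220 in LSK cells called 1 member, against 2 by DESeq2, 11 by limma voom and 0 with RLE, no filter, the offset, the pair of groups alone or genes of 1500 to 4000 bp. In LSK cells, DESeq2 called 1 member for Lys05 (and 332 genes higher and 275 lower, against 0 by edgeR), 3 for pooled Lys05 and 1 for the interaction, and limma voom 5 for pooled Lys05. In GMP, limma voom called 2 members for Lys05, 1 for AC220, 1 for the combination against Lys05 and 3 for pooled AC220. DESeq2 called 1 for the combination, 1 for the combination against Lys05 and 2 for pooled AC220. The offset called 4 for pooled AC220, beside 3.69% of all genes higher and 0.878% lower. For the counts in this paragraph, the all-gene shares by DESeq2 and limma voom are given above. For LSK against GMP under vehicle, 5 members became 9 by DESeq2, 9 with the offset, 21 by limma voom, 3 with the pair of groups alone and 17 without the 5 GMP libraries. Of all genes, 1.66% were called higher and 3.78% lower with the offset, and 2.41% and 3.15% with the pair of groups alone. The difference of AC220 effects went to 23 by limma voom, and that of the combination from 10 to 20 without the 5 GMP libraries. At a limit of 1500 bp, the short-transcript share differed in GMP by -0.02 points for AC220 against vehicle (2.12 at 1000 bp), by 0.23 for Lys05 (-0.86) and by -6.06 for the combination (exact permutation p = 0.0286; -4.27 and p = 0.171).

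Leaving out each library gave 29 to 35 members for AC220, 28 to 34 for the combination, 31 to 33 for the combination against Lys05, 13 to 14 and 9 to 11 for the differences of AC220 and combination effects, 0 to 2 for Lys05 in LSK cells (without vehicle library 1 or 3), 0 to 1 for the combination against AC220, 0 to 1 for pooled Lys05 in LSK cells (without vehicle library 3), 0 to 1 for pooled AC220 in GMP (without combination library 3) and 3 to 10 for LSK against GMP (3 without LSK vehicle library 3 or 4 or GMP vehicle library 1, and 10 without GMP combination library 3). Of 33, 34 and 32 calls, 28, 28 and 30 held whichever library was left out. Without the 5 GMP libraries of low correlation, a choice made after seeing the data, 0 members were called in all 8 GMP comparisons of treatments.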
